A study of Bos taurus with 138 samples.

Results

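The antioxidant enzymes described here are 10 of the 16706 gene symbols in the count table, listed by name and not by their values. They are the superoxide dismutases SOD1 and SOD2, catalase (CAT), the glutathione peroxidases GPX1 and GPX4, the peroxiredoxins PRDX1, PRDX2 and PRDX3, thioredoxin (TXN) and its cytosolic reductase TXNRD1. All 10 were in the table and all 10 passed the filter on low counts. The material was Bos taurus oocytes and embryos at 6 stages, none of which carried a genetic change. Germinal vesicle (GV) oocytes came from slaughterhouse ovaries and were matured in culture to metaphase II (MII). The 2-cell, 8-cell, morula and blastocyst embryos were made in vitro with semen of 1 Holstein bull, which limits them as a model of embryos from other sires. All stages were exposed to cycloheximide, which holds ribosomes on mRNA, and many oocytes or embryos were pooled for each lysate. At each stage, gradients A and B were cut into 10 fractions, F1 to F10, and whole oocytes or embryos were sequenced as transcriptomes A, B and C, which gives 120 fraction libraries and 18 transcriptomes. The labels do not say whether libraries of a stage came from separate collections of ovaries, so p-values measure the spread between these samples.

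Cells make superoxide as they respire. Superoxide dismutases turn it into hydrogen peroxide, SOD1 in the cytosol and SOD2 in the mitochondrial matrix, and peroxide is then reduced to water by catalase in peroxisomes, by glutathione peroxidases or by peroxiredoxins. GPX1 acts on soluble peroxides and GPX4 on lipid peroxides in membranes, and both, like TXNRD1, carry selenocysteine. PRDX1 and PRDX2 work in the cytosol and PRDX3 in mitochondria, and the cytosolic pair is recharged by thioredoxin, which TXNRD1 reduces in turn with NADPH. Oocytes and early embryos are known to be sensitive to peroxide, and before embryonic genome activation, which in cattle falls around the 8-cell stage, the mRNA of these enzymes is what the oocyte has stored.

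In a sucrose gradient, mRNA with more ribosomes sediments further. The study takes F1 and F2 as free RNA, F3 to F5 as monosomes, F6 and F7 as the zone between, and F8 to F10 as polysomes. The unit used below is CPM, the count of a gene as a share of its library's total, in parts per 1e6, after scaling by the TMM factors of edgeR. For tests of stages, each gradient's 3 polysome fractions were added up, which gave 12 polysome pools (n = 2 per stage), which were fitted together with the 18 transcriptomes (n = 3 per stage). A library's depth does not record how much RNA went into it. A CPM is therefore a share of the mRNA captured from that fraction or embryo and not an amount. Fewer cells of a type and less RNA per cell cannot be told apart. Whether the capture of a gene's mRNA differed between stages or fractions was not tested, so rises and falls below are those of the captured share. Levels are compared within a gene and not between genes, because transcript lengths were not used here.

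Totals lay between 1229382 and 17342859 counts in fraction libraries and between 3269386 and 11812567 in transcriptomes, and the 12 pools held 22543737 to 39380638. The summed level of 9 oocyte markers (ZP2, ZP3, ZP4, GDF9, BMP15, NLRP5, OOEP, ZAR1 and DAZL) was 17922 to 21610 CPM in GV transcriptomes and 40.3 to 145 CPM in those of blastocysts. The 8 blastocyst markers in the table (CDX2, GATA3, GATA2, KRT8, KRT18, TFAP2C, NANOG and POU5F1) summed to 70.5 to 84.1 CPM in GV transcriptomes and 5716 to 6572 CPM in blastocysts. Of 12 cumulus and granulosa markers, 4 to 10 reached 1 CPM in the transcriptomes of a stage. In GV transcriptomes 5 did, FOXL2 was at 0, and the sum was 512 to 662 CPM. The GV pools held 955 to 996 CPM. In MII oocytes the sum was 620 to 1242 CPM in pools and 430 to 544 CPM in transcriptomes. In 2-cell embryos it was 750 to 1024 and 348 to 391 CPM in that order. In 8-cell embryos it was 121 to 191 and 177 to 385 CPM. In morulae it was 25.3 to 45.1 and 29.5 to 34.3 CPM, and in blastocysts 41.5 to 66.1 and 66.3 to 89.4 CPM. Its part in the contrasts below was not tested. Of 6 blood markers, 1 to 3 reached 1 CPM in the transcriptomes of a stage, with sums of 4.83 to 149 CPM. In the pools from GV to 2-cell, 1 of the 6 blood markers reached 1 CPM, and the sum was 16.6 to 37.3 CPM. In 8-cell pools 2 did (sum 290 to 413 CPM), in morula pools 3 (210 to 727 CPM) and in blastocyst pools 4 (319 to 337 CPM). PTPRC was at 0 in the pools of all stages. The part of the blood markers in the pool changes below was not tested. The polysome pools of gradients A and B differed more than 2-fold for 4.23% of genes above 10 CPM in GV oocytes, 38.9% in 8-cell embryos and 49.7% in morulae. Among the antioxidant enzymes this applied to PRDX1 in GV oocytes, to CAT in 8-cell embryos and to 5 of the 10 in morulae (SOD1, CAT, GPX4, TXN and TXNRD1). The 8-cell transcriptome A was the highest of the 3 for 9 of the 10 genes, and 14.8% of genes above 10 CPM lay more than 2-fold from the mean of the other two. Where leaving out 1 of these libraries ended a call or moved a called value by over 1.5 times, the value without it is given.

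**Figure D1:**
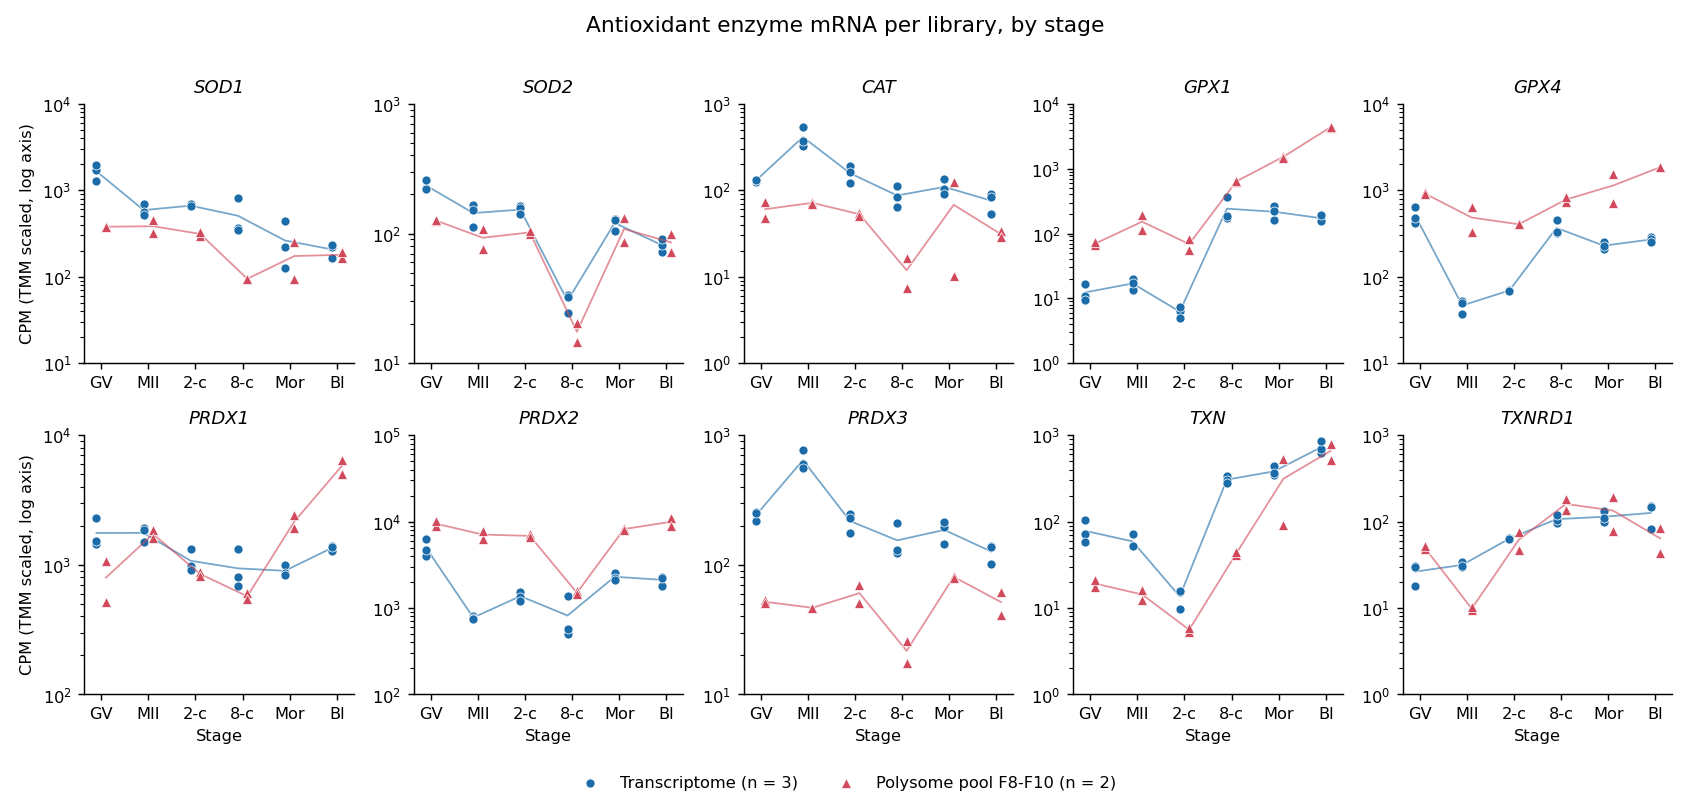
Level of each antioxidant enzyme mRNA (CPM, TMM scaled, log axis) by stage (GV, MII, 2-cell, 8-cell, morula, blastocyst), with each point a library, circles for the 3 transcriptomes and triangles for the 2 polysome pools of a stage, and lines through their means. GPX1, GPX4 and PRDX2 ran higher in the pools than in the transcriptomes of every stage, PRDX3 ran lower at every stage, and SOD2 reached its lowest level at the 8-cell stage in both.

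Among the superoxide dismutases, SOD1 mRNA fell on maturation and SOD2 mRNA fell and returned around the 8-cell stage. SOD1 in GV transcriptomes was at 1288, 1716 and 1973 CPM, and in MII transcriptomes at 691, 561 and 519 CPM. The groups did not overlap, and the log2 fold change was -1.49 ± 0.38 (SE; adjusted p = 0.0059 by edgeR's quasi-likelihood test). Later transcriptomes of SOD1 went from a mean of 664 ± 19.1 CPM (SD, n = 3) in 2-cell embryos to 207 ± 35.8 CPM in blastocysts, and none of the 4 later steps passed the test. The 3 morula values, 128, 437 and 222 CPM, were far apart.

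In the SOD1 polysome pools no fall on maturation was called. The pool and transcriptome changes were not called different by edgeR's test (difference of log2 changes 1.51 ± 0.59, adjusted p = 0.11). The pools held 384 and 373 CPM in GV oocytes, 319 and 449 CPM in MII oocytes and 298 and 327 CPM in 2-cell embryos. In 8-cell embryos they held 93.9 and 95.2 CPM, lower than at any earlier stage (log2 fold change -1.73 ± 0.46 from 2-cell embryos, adjusted p = 0.0041). Morula pools were apart, at 254 CPM in gradient A and 93.1 CPM in gradient B. SOD1 was lower in pools than in transcriptomes in GV oocytes (log2 fold change -2.13 ± 0.45, adjusted p = 0.00048), in 2-cell embryos (-1.09 ± 0.43, adjusted p = 0.037) and in 8-cell embryos (-2.42 ± 0.45, adjusted p = 9.1e-05). All 20 fraction libraries of GV oocytes, at 53.4 to 443 CPM, lay below the 3 transcriptomes, and so did all 20 of 8-cell embryos, at 4.63 to 345 CPM. The 2-cell difference was no longer called without any 1 of the 5 libraries compared (adjusted p from 0.057 to 0.15).

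SOD2, the mitochondrial dismutase, was at 162, 157 and 141 CPM in 2-cell transcriptomes and at 33.8, 24.2 and 32.6 CPM in 8-cell transcriptomes. It then stood at 129, 105 and 128 CPM in morulae. The fall (log2 fold change -2.34 ± 0.25, adjusted p = 5.2e-08) and the rise (2.00 ± 0.25, adjusted p = 7.8e-06) had groups that did not overlap. The pools moved alike, from 99.3 and 105 CPM to 14.4 and 20.4 CPM and back to 131 and 86.1 CPM (log2 fold changes -2.55 ± 0.31 and 2.63 ± 0.31, adjusted p = 7e-07 and 1.7e-06). These 4 changes of SOD2 kept their call under all alternatives that were run. SOD2 was lower in pools than in transcriptomes in GV oocytes (-0.90 ± 0.27, adjusted p = 0.012) and in 8-cell embryos (-0.79 ± 0.27, adjusted p = 0.017), each by less than 2-fold. The GV call was lost without either pool (adjusted p = 0.078 and 0.071) and the 8-cell call without pool A (adjusted p = 0.16).

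Catalase (CAT) mRNA rose in transcriptomes on maturation, from 123, 133 and 132 CPM to 325, 369 and 546 CPM. The log2 fold change was 1.67 ± 0.50 (adjusted p = 0.019), and the adjusted p was 0.057 to 0.071 without any 1 of the GV transcriptomes, 0.089 without MII transcriptome C and 0.096 on library totals without TMM factors. In 2-cell transcriptomes CAT stood at 189, 163 and 121 CPM, a step that missed the threshold (-1.39 ± 0.49, adjusted p = 0.066).

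No rise of CAT was called in the pools, which held 73 and 48 CPM in GV oocytes and 73.3 and 69.9 CPM in MII oocytes (log2 fold change 0.24 ± 0.59, adjusted p = 0.93). The pool and transcriptome changes were not called different by edgeR's test (difference of log2 changes -1.43 ± 0.77, adjusted p = 0.27). CAT was lower in pools than in transcriptomes in MII oocytes (-2.53 ± 0.60, adjusted p = 0.00099), 2-cell embryos (-1.58 ± 0.57, adjusted p = 0.025) and 8-cell embryos (-2.87 ± 0.61, adjusted p = 0.00038). The 2-cell call was lost under 4 of 39 alternatives (adjusted p up to 0.12), and the 8-cell value was -3.55 without 8-cell pool B. In GV and MII oocytes and in 2-cell and 8-cell embryos, all 20 fraction libraries lay below the 3 transcriptomes. The median fraction library of 8-cell embryos held 1.46 CPM, 4 of the 20 were at 0, and the 3 transcriptomes of that scale lay between 80.4 and 132 CPM. In those 4 libraries a count of 0 allows a level of up to 0.299 to 0.688 CPM, which is 3 counts of the library's total and covers counting error only. In morulae the CAT pools were at 10.1 CPM in gradient A and 126 CPM in gradient B. The fitted rise from 8-cell pools (2.51 ± 0.63, adjusted p = 0.0035) turned to -0.22 without morula pool B and was 3.40 without morula pool A and 3.2 without 8-cell pool B, so the rise rested on 1 gradient. The fall before it, from 55.2 and 50.5 CPM in 2-cell pools to 7.42 and 16.3 CPM in 8-cell pools (-2.15 ± 0.62, adjusted p = 0.007), was -2.83 without 8-cell pool B and lost its call under 2 of 40 alternatives.

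GPX1, the soluble glutathione peroxidase, was scarce in transcriptomes before genome activation and much higher after it. It held 10.9, 16.8 and 9.33 CPM in GV oocytes, 13.4, 20.1 and 17.4 CPM in MII oocytes and 6.47, 4.96 and 7.3 CPM in 2-cell embryos. The MII to 2-cell fall passed the test (log2 fold change -1.44 ± 0.31, adjusted p = 0.0021), and on library totals without TMM factors it was -0.94, under the 2-fold minimum. In 8-cell embryos it held 365, 175 and 184 CPM, a rise of 5.27 ± 0.35 (adjusted p = 3.5e-11) with no overlap, and morulae and blastocysts stayed between 156 and 267 CPM.

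The GPX1 pools kept rising after the transcriptomes had levelled. They held 65.6 and 73.3 CPM in GV oocytes, 114 and 190 CPM in MII oocytes and 82.6 and 54.9 CPM in 2-cell embryos. They then held 620 and 653 CPM in 8-cell embryos (log2 fold change 3.21 ± 0.38, adjusted p = 5.3e-07), 1598 and 1460 CPM in morulae (1.26 ± 0.36, adjusted p = 0.0082) and 4308 and 4425 CPM in blastocysts (1.51 ± 0.36, adjusted p = 0.0073). The morula and blastocyst steps had an adjusted p of 0.053 and 0.14 when the 12 pools were fitted without the transcriptomes. GPX1 was higher in pools than in transcriptomes at all 6 stages, from a log2 fold change of 1.40 ± 0.32 in 8-cell embryos (adjusted p = 0.00067) to 4.66 ± 0.35 in blastocysts (adjusted p = 9.4e-10). This excess was not limited to polysomes. In MII oocytes, morulae and blastocysts all 20 fraction libraries lay above the 3 transcriptomes, and in blastocysts F6 was the fraction with the highest mean, at 5469 and 7640 CPM in gradients A and B, with F1 at 1134 and 795 CPM. In 8-cell embryos F3 was at 40.1 and 126 CPM, below the transcriptomes, and F8 at 903 and 961 CPM, above them.

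GPX4, the lipid peroxide reductase, lost most of its transcriptome level on maturation and regained it at the 8-cell stage. GV transcriptomes held 417, 641 and 477 CPM, MII transcriptomes 53, 49.5 and 36.9 CPM, 2-cell transcriptomes 70.2, 68.5 and 69.1 CPM, and 8-cell transcriptomes 453, 319 and 330 CPM. The fall had a log2 fold change of -3.46 ± 0.29 (adjusted p = 6.8e-09) and the rise one of 2.41 ± 0.28 (adjusted p = 1.5e-07), and neither pair of groups overlapped. Both kept their call under all alternatives run.

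GPX4 pools changed less. They were at 946 and 897 CPM in GV oocytes, 325 and 641 CPM in MII oocytes, 403 and 407 CPM in 2-cell embryos and 731 and 834 CPM in 8-cell embryos, and no step between stages passed both the test and the 2-fold minimum. Blastocyst pools reached 1845 and 1856 CPM, and the morula pools before them were 1561 CPM in gradient A and 712 CPM in gradient B. GPX4 was higher in pools than in transcriptomes at all 6 stages, most in MII oocytes (log2 fold change 3.38 ± 0.30, adjusted p = 1.4e-09). Without MII pool B that log2 fold change was 2.77, and the morula value of 2.31 was 1.62 without morula pool A. The GV difference (0.85 ± 0.29, adjusted p = 0.022) was lost under 6 of 39 alternatives (adjusted p up to 0.13). The highest GPX4 shares in oocytes were in free RNA: F1 held 3196 and 7233 CPM in GV oocytes and F2 held 5708 and 3946 CPM, and no later GV fraction exceeded 1489 CPM. In MII oocytes F1 and F2 held 719 to 1441 CPM, F3 to F9 held 96.4 to 451 CPM, and F10 held 328 CPM in gradient A and 1161 CPM in gradient B.

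Of the peroxiredoxins, PRDX2 fell in transcriptomes on maturation. Its transcriptome level was 3960, 6240 and 4730 CPM in GV oocytes and 808, 771 and 752 CPM in MII oocytes, a fall with a log2 fold change of -2.68 ± 0.29 (adjusted p = 2.4e-07) and no overlap. The 8-cell transcriptomes were apart from each other, at 1378, 501 and 580 CPM, and morula transcriptomes held 2557, 2224 and 2138 CPM. The rise to morulae was 1.49 ± 0.28 (adjusted p = 0.00058), or 2.09 without 8-cell transcriptome A.

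The PRDX2 pools showed no such fall on maturation, with 8888 and 10153 CPM in GV oocytes, 6313 and 7874 CPM in MII oocytes and 7140 and 6571 CPM in 2-cell embryos. They dropped to 1564 and 1447 CPM in 8-cell embryos (log2 fold change -2.19 ± 0.34, adjusted p = 2e-05) and held 8514 and 7923 CPM in morulae (2.45 ± 0.35, adjusted p = 1.4e-05). PRDX2 was higher in pools than in transcriptomes at all 6 stages, with log2 fold changes from 0.88 ± 0.30 in 8-cell embryos (adjusted p = 0.015) to 3.19 ± 0.31 in MII oocytes (adjusted p = 4.9e-09). The 8-cell value was 1.48 without transcriptome A, and its call was lost under 5 of 39 alternatives (adjusted p up to 0.084), as the GV call (0.94 ± 0.30, adjusted p = 0.015) was under 4 (adjusted p up to 0.098). In GV oocytes F1 held 18191 and 36314 CPM and F2 held 37734 and 31927 CPM, all above every later GV fraction, where the highest value was 12928 CPM. No fraction library of MII oocytes or 2-cell embryos was as low as the transcriptomes of its stage.

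For PRDX1, the other cytosolic peroxiredoxin, none of the 5 transcriptome steps between stages passed the test. Its transcriptome means ran from 900 ± 79.4 CPM (SD, n = 3) in morulae to 1765 ± 231 CPM in MII oocytes. The replicates of these stages did not overlap (841 to 990 CPM and 1504 to 1942 CPM), and no test compared them directly. The pools were lower than the transcriptomes in GV oocytes and higher in morulae and blastocysts. They held 514 and 1081 CPM in GV oocytes, 603 and 543 CPM in 8-cell embryos, 2416 and 1912 CPM in morulae and 6474 and 5055 CPM in blastocysts. The rises to morulae (log2 fold change 1.92 ± 0.34, adjusted p = 0.00015) and blastocysts (1.41 ± 0.33, adjusted p = 0.0068) had no overlap, and the second had an adjusted p of 0.20 with the 12 pools fitted alone. Against transcriptomes, pools were at -1.15 ± 0.31 in GV oocytes (adjusted p = 0.0046), 1.27 ± 0.29 in morulae (adjusted p = 0.00099) and 2.09 ± 0.30 in blastocysts (adjusted p = 5.3e-06). The GV value was -1.78 without GV pool B and -0.71 (adjusted p = 0.14) without GV pool A. All 20 GV fraction libraries, at 83.2 to 1072 CPM, lay below the transcriptomes, and all 20 of blastocysts, at 1637 to 7395 CPM, lay above them.

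PRDX3, the mitochondrial peroxiredoxin, rose in transcriptomes on maturation and fell back by the 2-cell stage. It held 217, 255 and 251 CPM in GV oocytes, 605, 558 and 769 CPM in MII oocytes and 247, 231 and 176 CPM in 2-cell embryos. The log2 fold changes were 1.42 ± 0.26 (adjusted p = 0.00027) and -1.56 ± 0.26 (adjusted p = 0.00021), with no overlap in either step. On library totals without TMM factors the rise just missed the 2-fold minimum (adjusted p = 0.0053).

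The PRDX3 pools did not take part in this rise, at 53.4 and 50.4 CPM in GV oocytes, 46.7 and 46.6 CPM in MII oocytes and 70.1 and 51 CPM in 2-cell embryos. They held 26 and 17.5 CPM in 8-cell embryos (log2 fold change -1.48 ± 0.32, adjusted p = 0.00064, or 0.076 under 1 of 40 alternatives) and 82.4 and 79.5 CPM in morulae (1.90 ± 0.32, adjusted p = 0.00011). PRDX3 was lower in pools than in transcriptomes at all 6 stages, from -1.20 ± 0.30 in morulae (adjusted p = 0.0017) to -3.79 ± 0.34 in MII oocytes (adjusted p = 1.4e-09), and these 6 calls held under all alternatives run. No fraction library of any stage lay above the 3 transcriptomes. In GV oocytes PRDX3 climbed along the gradient from 17.4 and 16 CPM in F3 to 69 and 72.5 CPM in F10, still below the 3 GV transcriptomes at 209 to 236 CPM on the same scale.

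In the thioredoxin system, TXN mRNA fell by the 2-cell stage and rose strongly at the 8-cell stage. Its transcriptomes held 72.9, 51.9 and 52.6 CPM in MII oocytes, 15.2, 15.8 and 9.85 CPM in 2-cell embryos, 334, 303 and 282 CPM in 8-cell embryos and 631, 697 and 851 CPM in blastocysts. The fall was -2.12 ± 0.39 (adjusted p = 0.00062) and the rise 4.49 ± 0.43 (adjusted p = 1.1e-08) on the log2 scale, both without overlap. The 2-cell level was the lowest of the 6 stages.

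TXN pools rose at the 8-cell stage too, and again in morulae. They held 5.31 and 5.94 CPM in 2-cell embryos and 41.2 and 44.8 CPM in 8-cell embryos (log2 fold change 2.93 ± 0.50, adjusted p = 4.9e-05). Pool and transcriptome changes in that step were not called different by edgeR's test (difference of log2 changes -1.56 ± 0.60, adjusted p = 0.092). Morula pools were at 538 CPM in gradient A and 91.6 CPM in gradient B, and blastocyst pools at 525 and 794 CPM. The 8-cell to morula rise was 2.87 ± 0.49 (adjusted p = 0.00011) and kept its call without morula pool A, where it was 1.10 (adjusted p = 0.020), and it was 3.67 without morula pool B. TXN was lower in pools than in transcriptomes in GV oocytes (-2.02 ± 0.45, adjusted p = 0.00093), MII oocytes (-2.04 ± 0.45, adjusted p = 0.00053), 2-cell embryos (-1.28 ± 0.44, adjusted p = 0.02, lost under 3 of 39 alternatives) and 8-cell embryos (-2.83 ± 0.47, adjusted p = 2.2e-05). In 8-cell embryos the 6 libraries of F3 to F5 held 3.16 to 6.42 CPM and the 6 of F8 to F10 held 38.9 to 54.6 CPM, and the transcriptomes of that scale were at 356 to 396 CPM. Blastocyst pools and transcriptomes overlapped (-0.14 ± 0.42, adjusted p = 0.83).

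For TXNRD1, 3 steps were called in the pools and 1 in the transcriptomes. By edgeR's test the pool and transcriptome changes were called different in 1 step, GV to MII (difference of log2 changes -2.61 ± 0.53, adjusted p = 0.0018). From MII to 2-cell they were not (1.64 ± 0.52, adjusted p = 0.11). Its transcriptomes rose through the stages in small steps, from a mean of 26.4 ± 7.09 CPM (SD, n = 3) in GV oocytes to 126 ± 38.9 CPM in blastocysts, and 1 step, MII to 2-cell, passed both limits by little (log2 fold change 1.01 ± 0.33, adjusted p = 0.045). That call was lost under 27 of the 38 alternatives. The pools held 48.8 and 51.7 CPM in GV oocytes, 9.47 and 10.2 CPM in MII oocytes, 76.5 and 47.1 CPM in 2-cell embryos and 184 and 137 CPM in 8-cell embryos. The fall on maturation was -2.35 ± 0.42 (adjusted p = 0.0016), and the rises after it were 2.65 ± 0.43 (adjusted p = 0.00044) and 1.38 ± 0.41 (adjusted p = 0.0079). With the 12 pools fitted alone, the adjusted p of these 3 steps was 0.21, 0.12 and 0.093. TXNRD1 was lower in pools than in transcriptomes in MII oocytes (-1.68 ± 0.39, adjusted p = 0.00078). In 8-cell embryos F9 and F10 held 153 to 419 CPM, and no library of F1 to F8 exceeded 74.8 CPM.

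Counted over the 10 genes, the transcriptome changes were spread over 4 of the 5 steps between stages. From GV to MII, 2 rose (CAT and PRDX3) and 3 fell (SOD1, GPX4 and PRDX2), and over all 14612 genes tested 6.61% rose and 10.5% fell. From MII to 2-cell, 1 rose (TXNRD1) and 3 fell (GPX1, PRDX3 and TXN), against 6.0% and 5.96% of genes. From 2-cell to 8-cell, 3 rose (GPX1, GPX4 and TXN) and 1 fell (SOD2), against 26.6% and 23.5%. From 8-cell to morula, 2 rose (SOD2 and PRDX2) and none fell, against 6.6% and 7.75%. From morula to blastocyst none was called by edgeR, against 10.2% and 11.4% of genes, 4 of the 10 had an unadjusted p under 0.05 (SOD2, PRDX1, PRDX3 and TXN), and DESeq2 called 1 (TXN, log2 fold change 1.02, adjusted p = 0.041). Of the 15 calls, 11 held under all 38 alternatives.

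In the pools, 14 rises and 7 falls were called over the 5 steps, most of them at and after the 2-cell to 8-cell step. From GV to MII, 1 rose (PRDX1, 1.12 ± 0.33, adjusted p = 0.046, or 0.47 without GV pool A) and 1 fell (TXNRD1), where 3.03% and 2.33% of genes did. The PRDX1 call was lost under 24 of 40 alternatives, and its value was 1.75 without GV pool B. From MII to 2-cell, 1 rose (TXNRD1) and 1 fell (GPX1, adjusted p = 0.046, or 0.37 without MII pool B), where 3.37% and 5.14% did. From 2-cell to 8-cell, 3 rose (GPX1, TXN and TXNRD1) and 5 fell (SOD1, SOD2, CAT, PRDX2 and PRDX3), where 21.0% and 25.2% did, and the median log2 fold change was -1.03 beside -0.26 over all genes. From 8-cell to morula, 7 rose (SOD2, CAT, GPX1, PRDX1, PRDX2, PRDX3 and TXN) and none fell, where 18.5% and 17.7% did, and the median log2 fold change of the 10 was 1.91 beside 0 over all genes. From morula to blastocyst, 2 rose (GPX1 and PRDX1) and none fell, where 5.79% and 8.13% did. Without morula pool A there were 11 falls in place of 7.

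**Figure D2:**
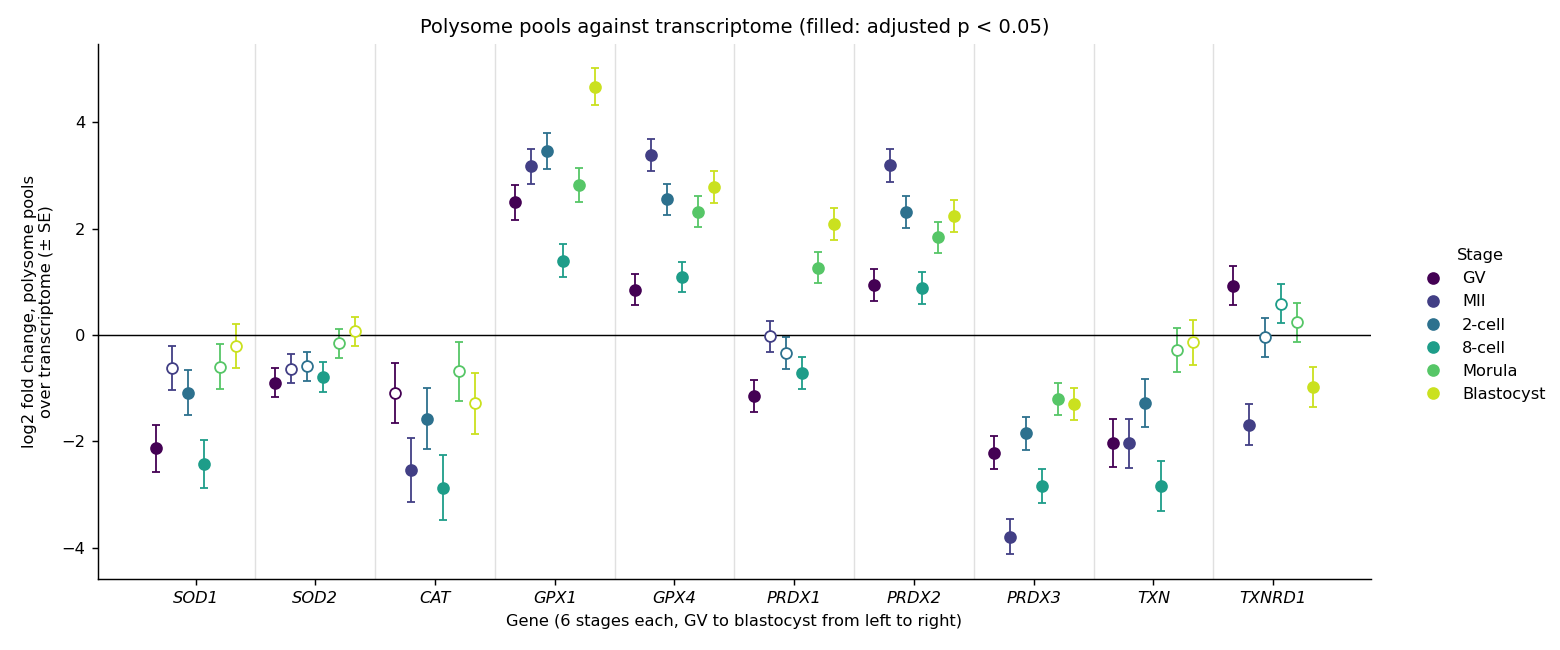
Log2 fold change of polysome pools over transcriptome (± SE, edgeR) for each gene at the 6 stages from left to right, filled where the adjusted p was under 0.05. GPX1, GPX4 and PRDX2 lay above 0 at all 6 stages, PRDX3 below 0 at all 6, and PRDX1 went from -1.15 in GV oocytes to 2.09 in blastocysts.

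Set against the transcriptome of the same stage, the 10 genes divided into 3 called higher in the pools at all 6 stages (GPX1, GPX4 and PRDX2), PRDX3, called lower at all 6, and 6 that varied by stage. Under every alternative the calls of GPX1 and PRDX3 held at all 6 stages, and those of GPX4 in GV oocytes and of PRDX2 in GV oocytes and 8-cell embryos did not. In GV oocytes 4 were higher and 5 lower, where 22.2% and 17.7% of all genes were. The counts were 3 and 4 in MII oocytes (30.8% and 26.7% of genes) and 3 and 4 in 2-cell embryos (29.1% and 21.9%). They were 3 and 6 in 8-cell embryos (28.0% and 31.0%), 4 and 1 in morulae (26.5% and 25.2%) and 4 and 2 in blastocysts (20% and 20.1%). Several calls were small: TXNRD1 in GV oocytes (0.93 ± 0.36, adjusted p = 0.044) and in blastocysts (-0.98 ± 0.38, adjusted p = 0.041) and PRDX1 in 8-cell embryos (-0.72 ± 0.30, adjusted p = 0.046) lost their call under 23, 7 and 11 of 39 alternatives. The TXNRD1 blastocyst value was -1.57 without pool A. Without morula pool A, TXN (-2.09) and SOD1 (-1.52) were lower in morula pools, and without pool B, CAT was (-3.44).

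The contrast with the transcriptome was also measured in all fractions, free RNA and monosomes included. In GV oocytes none of the 10 genes had all 20 fraction libraries above the 3 transcriptomes and 6 had all 20 below (SOD1, SOD2, CAT, PRDX1, PRDX3 and TXN), where 20.4% and 24.2% of genes with a mean of 1 CPM or more did. In MII oocytes 3 were above throughout (GPX1, GPX4 and PRDX2) and 2 below (CAT and PRDX3), where 14.3% and 24.5% of genes were. In 2-cell embryos 2 were above (GPX4 and PRDX2) and 1 below (CAT), where 10.6% and 22.2% were. In 8-cell embryos none was above and 4 were below (SOD1, CAT, PRDX3 and TXN), where 5.32% and 16.1% were. In morulae GPX1 alone was above and none was below, where 2.45% and 14.4% were. In blastocysts GPX1 and PRDX1 were above and PRDX3 was below, where 1.61% and 9.29% were.

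**Figure D3:**
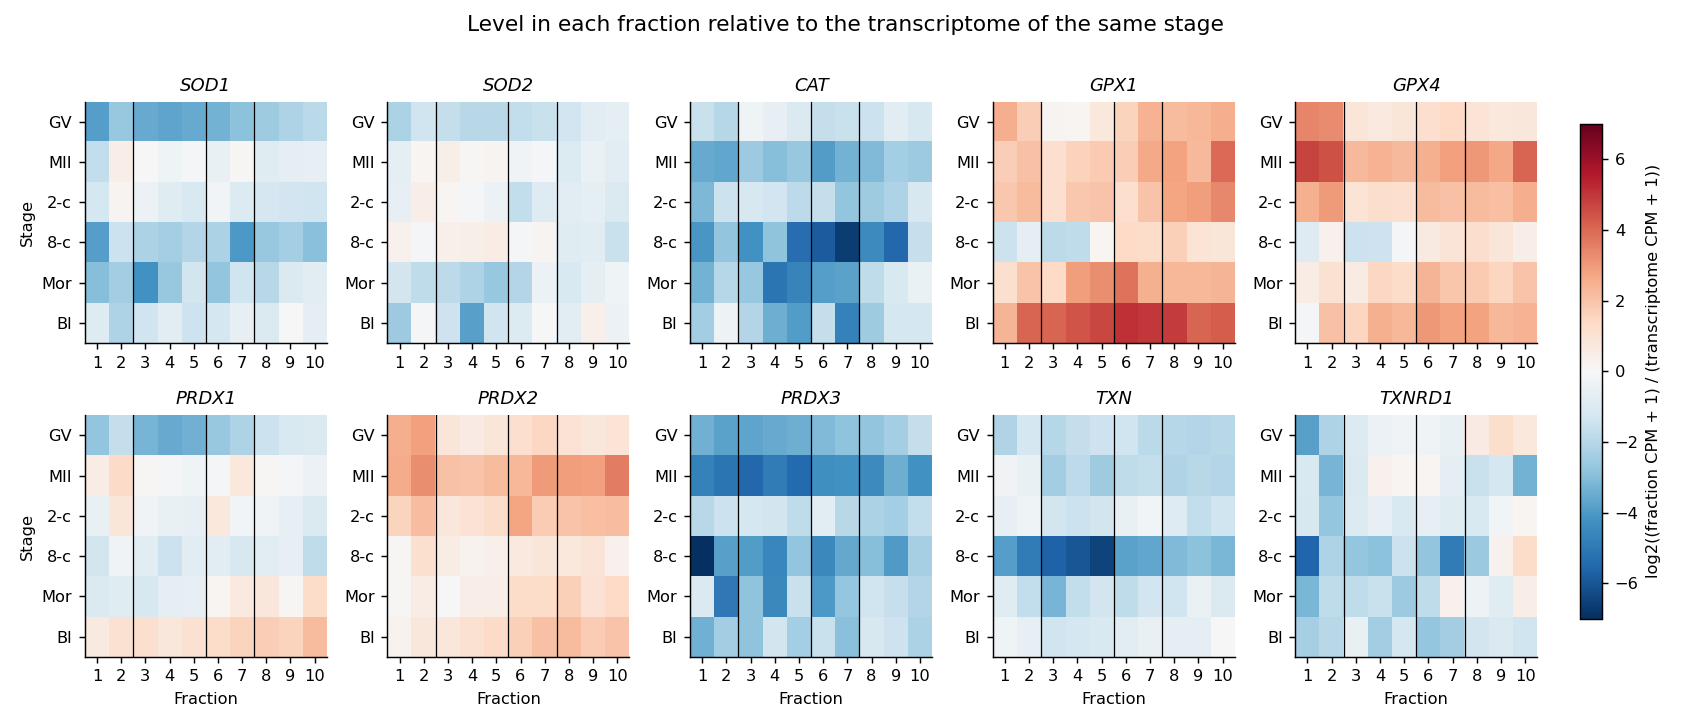
Mean level of gradients A and B in each fraction relative to the mean transcriptome of the same stage, as log2((fraction CPM + 1) / (transcriptome CPM + 1)), for F1 to F10 (columns) and the 6 stages (rows), with vertical lines between free RNA, monosomes, the zone between and polysomes. GPX4 was most raised in F1 and F2 of MII oocytes and PRDX2 in F10 of MII oocytes, TXN in 8-cell embryos was lowest in F3 to F5, and PRDX3 was lower than the transcriptome in every fraction mean.

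Within the gradients, the trend of a gene from F3 to F10 was measured as Spearman's rho over 16 libraries, with a permutation p adjusted over all genes of the stage. The 8 fractions of a gradient share a lysate, so these libraries are not 16 independent samples. In GV oocytes 6 genes rose towards heavy fractions (SOD1, SOD2, GPX1, PRDX1, PRDX3 and TXNRD1, rho 0.77 to 0.95) and none fell, where 18% and 18.5% of genes did. In MII oocytes GPX1 (rho 0.70) and PRDX2 (0.79) rose and SOD2 (-0.80) fell, where 7.31% and 12.3% did. In 2-cell embryos GPX1 (0.82), GPX4 (0.76) and PRDX2 (0.80) rose and SOD2 (-0.69) fell, where 10.8% and 9.9% did. In 8-cell embryos GPX4 (0.72) and TXN (0.82) rose and none fell, where 6.41% and 8.62% did. In morulae PRDX1 (0.81) rose and none fell, where 0.887% and 0.646% did. In blastocysts PRDX1 (0.74), PRDX2 (0.75) and TXN (0.80) rose and none fell, where 6.21% and 1.75% did. CAT had no called trend at any stage, with rho from -0.40 to 0.59.

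The GV oocyte profiles of SOD1 and PRDX1 show what such a trend looks like in counts. SOD1 held 132 and 132 CPM in F3 and 443 and 406 CPM in F10 (rho 0.94, adjusted permutation p = 0.00022), and PRDX1 held 247 and 102 CPM in F3 and 628 and 1029 CPM in F10 (rho 0.91, adjusted permutation p = 0.00022). In blastocysts GPX1 had no trend (rho 0.04) although its pools exceeded the transcriptomes most, since its level peaked in F6 and F7. When the counts of F8 to F10 were tested against those of F3 to F5 in edgeR with the gradient as a block, 4 rises were called, all in 8-cell embryos, and 2 of them (GPX4 and TXN) were among the 19 trends. Gradient A alone gave 2 called trends and gradient B alone gave 7.

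**Figure D4:**
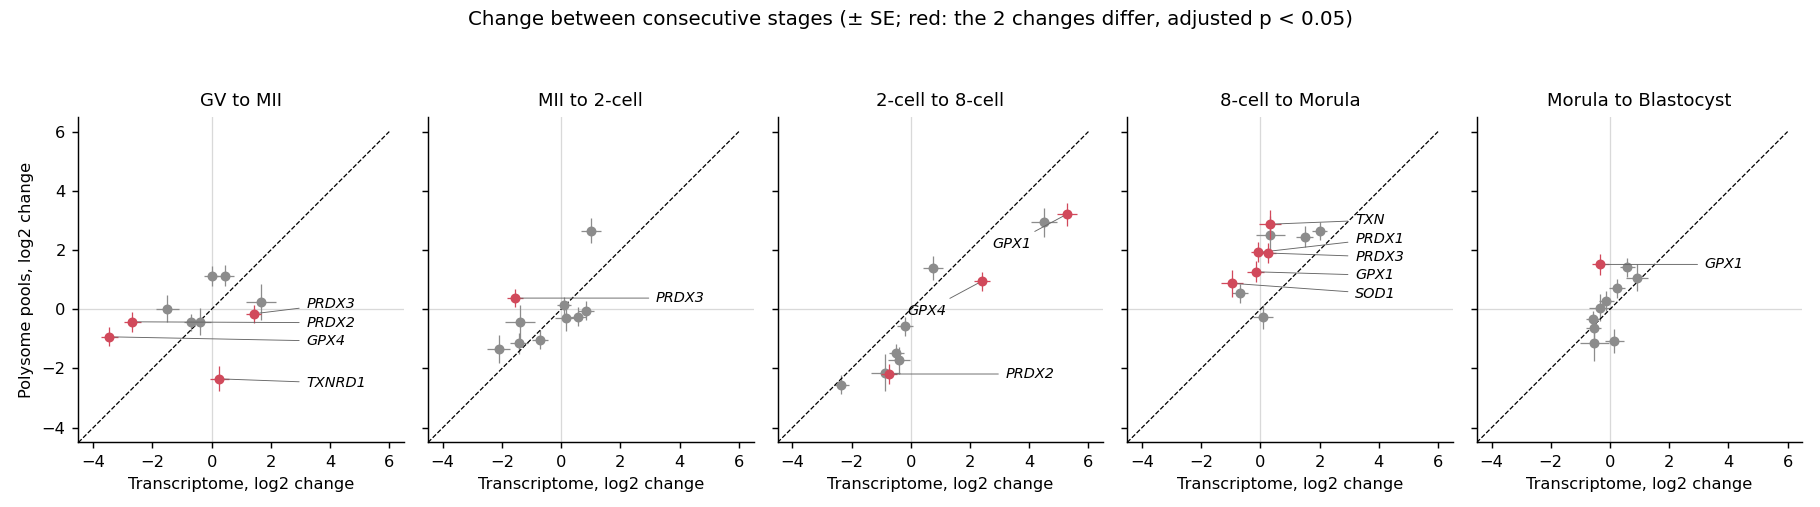
Log2 change of the polysome pools (vertical, ± SE) against that of the transcriptome (horizontal, ± SE) for the 10 genes in each step between stages, with the line of equal change dashed and the genes whose changes differed (adjusted p < 0.05) in red with their names. From 8-cell to morula all 5 named genes lay above the line, and from GV to MII GPX4 and PRDX2 lay above it and PRDX3 and TXNRD1 below it.

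Whether pools and transcriptomes changed by different amounts was tested as an interaction in the same model. From GV to MII 4 of the 10 genes differed, where 10.6% of all genes did: GPX4 (difference of log2 changes 2.53 ± 0.42, adjusted p = 0.00025) and PRDX2 (2.25 ± 0.43, adjusted p = 0.0011) fell less in pools, and PRDX3 (-1.57 ± 0.41, adjusted p = 0.012) and TXNRD1 (-2.61 ± 0.53, adjusted p = 0.0018) moved lower there. From MII to 2-cell 1 differed (PRDX3, 1.94 ± 0.41, adjusted p = 0.016), where 1.81% of genes did. From 2-cell to 8-cell 3 differed, all with the pools gaining less or losing more, where 12.2% did: GPX1 (-2.06 ± 0.47, adjusted p = 0.0055), GPX4 (-1.45 ± 0.42, adjusted p = 0.024) and PRDX2 (-1.44 ± 0.43, adjusted p = 0.029, or -0.84 and 0.10 without 8-cell transcriptome A). The GPX4 call of that step was lost under 5 of 38 alternatives and the PRDX2 call under 7. The PRDX3 calls from GV to MII and from MII to 2-cell were lost under 2 each.

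From 8-cell to morula 5 differed, all in favour of the pools, where 12.5% of genes differed. They were TXN (2.55 ± 0.60, adjusted p = 0.007), PRDX1 (1.98 ± 0.42, adjusted p = 0.0033), SOD1 (1.83 ± 0.59, adjusted p = 0.042), PRDX3 (1.63 ± 0.41, adjusted p = 0.01) and GPX1 (1.42 ± 0.46, adjusted p = 0.042). Without morula pool A, TXN was at 0.77 (adjusted p = 0.27) and SOD1 at 0.93 (adjusted p = 0.34), and without morula pool B, TXN was at 3.34. SOD1 was at 2.41 without morula transcriptome B, and its call was lost under 14 of 38 alternatives. The GPX1 call was lost under 11 of 38 alternatives (adjusted p up to 0.14) and the PRDX3 call under 1 (adjusted p = 0.085), and PRDX1 kept its call under all 38. From morula to blastocyst 1 differed (GPX1, 1.85 ± 0.46, adjusted p = 0.011), where 12.3% did. These comparisons of consecutive stages share the libraries of the stage between them, so a low 8-cell pool enters both the fall before it and the rise after it.

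The order of stages by level differed between genes. In transcriptomes, SOD1, SOD2, GPX4 and PRDX2 had their highest mean in GV oocytes, CAT, PRDX1 and PRDX3 in MII oocytes, GPX1 in 8-cell embryos, and TXN and TXNRD1 in blastocysts. The first place of PRDX1 was not separated from GV oocytes (1765 against 1764 CPM), nor that of GPX1 from morulae, TXNRD1 from morulae or GPX4 from 8-cell embryos, since their replicates overlapped. In pools, GPX1, GPX4, PRDX1, PRDX2 and TXN were highest in blastocysts, where TXN overlapped morulae and PRDX2 overlapped GV oocytes. The genes most like each in pattern were found by Pearson's r of log2(CPM + 1) over the 12 stage means of transcriptomes and pools among 8812 genes, as a description only. They were ZNF277 for PRDX3 (r = 0.99), RPS3A for TXN (0.98), PRELID1 for GPX1 (0.98), LZTFL1 for CAT (0.96), NDUFS7 for GPX4 (0.96), MANBAL for PRDX2 (0.96), CLDN10 for SOD2 (0.95), ZNF32 for SOD1 (0.93), BCAS4 for PRDX1 (0.91) and NUDT4 for TXNRD1 (0.89). Within the 10 genes, CAT and PRDX3 were the most alike (r = 0.94), and GPX1 and GPX4 followed (0.75).

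The wider redox system was described with 7 lists that hold 58 other genes of the table. In transcriptomes, 5 of the 58 rose and 5 fell from GV to MII (6.61% and 10.5% of all genes), 3 and 7 from MII to 2-cell (6.0% and 5.96%), 24 and 10 from 2-cell to 8-cell (26.6% and 23.5%), 3 and 10 from 8-cell to morula (6.6% and 7.75%), and 7 and 6 from morula to blastocyst (10.2% and 11.4%). The median log2 fold change was largest from 2-cell to 8-cell, at 0.63, where the median over all genes was 0.03. Of the 8 genes listed as other peroxidases and dismutases, 7 rose in that step and none fell (26.6% and 23.5% of all genes). This list also holds the copper chaperone CCS. From 8-cell to morula none of the 8 rose and 3 fell (6.6% and 7.75%). From 2-cell to 8-cell, rises and falls were 4 and 1 of 11 thioredoxin and glutaredoxin partners and 4 and 3 of 11 glutathione genes. They were 3 and 1 of 7 (sestrins and methionine sulfoxide reductases), 3 and 2 of 6 (NADPH supply), 2 and 2 of 9 (NRF2 axis) and 1 and 1 of 6 (selenoprotein synthesis). The mitochondrial NADPH supplier IDH2 rose from 0.0765 to 0.623 CPM to 20.5 to 35.0 CPM (log2 fold change 6.22 ± 0.59), extracellular SOD3 from 0 in all 3 2-cell libraries to 0.671 to 1.56 CPM, and SEPSECS (-3.10 ± 0.76), which completes the synthesis of selenocysteine on its tRNA, and SESN2 (-2.58 ± 0.51) fell.

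In the other steps the rule for naming 2 genes in each direction picked the following transcriptome changes. From GV to MII the glutathione transferases GSTA4 (log2 fold change 1.48 ± 0.47) and MGST3 (1.46 ± 0.39) rose, and the glutaredoxin GLRX3 (-3.39 ± 0.46) and the peroxiredoxin PRDX5 (-2.10 ± 0.24) fell. From MII to 2-cell GLRX3 (2.86 ± 0.45) and the heme oxygenase HMOX2 (1.25 ± 0.29) rose, and the thioredoxin-like TXNDC17 (-3.45 ± 0.46) and CCS (-1.97 ± 0.60), the copper chaperone of SOD1, fell. CCS was scarce and its groups overlapped, at 0.646 to 2.50 CPM in MII and 0.153 to 0.856 CPM in 2-cell transcriptomes. From 8-cell to morula GLRX (2.50 ± 0.30) and the NADPH supplier IDH1 (1.80 ± 0.31) rose, and ME1 (-5.93 ± 0.60), another NADPH supplier, and GPX3 (-5.69 ± 1.81, at 2.42 CPM or less in all 6 libraries) fell. From morula to blastocyst the methionine sulfoxide reductase MSRA (4.02 ± 1.24) and GCLC (2.31 ± 0.38), a subunit of the enzyme that limits glutathione synthesis, rose, and SESN3 (-3.05 ± 1.11) and MGST1 (-2.86 ± 0.69) fell.

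In the pools, 8 of the 58 rose and 1 fell from GV to MII (3.03% and 2.33% of all genes), 2 and 7 from MII to 2-cell (3.37% and 5.14%), 18 and 15 from 2-cell to 8-cell (21.0% and 25.2%), 11 and 9 from 8-cell to morula (18.5% and 17.7%) and 6 and 6 from morula to blastocyst (5.79% and 8.13%). The peroxiredoxin PRDX4 of the secretory pathway rose from 51.1 and 60.1 CPM in GV pools to 340 CPM in both MII pools (log2 fold change 2.66 ± 0.36). GCLC fell in that step (-1.72 ± 0.46) and rose in the next (1.86 ± 0.46) with the small MAF protein MAFG (1.62 ± 0.42), and CCS fell (-3.09 ± 0.68). MGST1 rose from 0.0297 and 0.462 CPM in 2-cell pools to 15.7 and 44.9 CPM in 8-cell pools, and SEPSECS from at most 0.0284 CPM in morula pools to 0.988 and 8.50 CPM in blastocyst pools. The other picks of the rule were listed at 0 in both pools of 1 stage, so no fold is given. SOD3 was at 0 in GV and 2-cell pools and at most 1.48 CPM in MII and 8-cell pools. TXNRD3 was at 0 in 8-cell and morula pools, GCLM and PSTK at 0 in 8-cell pools, NQO1 and ME1 at 0 in morula pools, and GPX8 and NNT at 0 in blastocyst pools.

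Against the transcriptome, 17 of the 58 were higher and 8 lower in GV pools (22.2% and 17.7% of all genes), 22 and 15 in MII pools (30.8% and 26.7%), 22 and 13 in 2-cell pools (29.1% and 21.9%), 16 and 13 in 8-cell pools (28.0% and 31.0%), 25 and 9 in morula pools (26.5% and 25.2%) and 21 and 13 in blastocyst pools (20% and 20.1%). KEAP1, which marks the transcription factor NRF2 for degradation, was at 190 and 664 CPM in MII pools and 6.46 to 8.87 CPM in MII transcriptomes (log2 fold change 5.73 ± 0.43), and at 420 and 457 CPM against 13.8 to 16.2 CPM in 8-cell embryos (4.75 ± 0.41). The mitochondrial reductase TXNRD2 was higher in pools of MII oocytes (5.27 ± 0.89), morulae (4.46 ± 0.85) and blastocysts (3.90 ± 0.85), and EEFSEC, the elongation factor for selenocysteine, in those of 2-cell embryos (5.09 ± 0.75) and 8-cell embryos (4.93 ± 0.75) and, at 38.4 and 41.1 CPM against 1.83 to 3.33 CPM, in those of blastocysts. HMOX1 was higher in GV pools (6.27 ± 1.58), at 3.36 and 7.79 CPM against at most 0.2 CPM in the transcriptomes. In 2-cell pools (5.12 ± 1.56) HMOX1 held 0.0816 and 3.83 CPM against at most 0.0810 CPM, so that difference rested on 1 pool. MAFK was at 0 in all GV and morula transcriptomes and at 0.546 to 2.27 CPM in their pools. Lower in pools were GLRX3 (-2.89 ± 0.53) and NQO1 (-2.58 ± 0.60) in GV oocytes, GPX8 (-3.81 ± 1.12) and SESN1 (-3.59 ± 0.76) in MII oocytes, MGST1 (-3.62 ± 0.90) and SESN3 (-3.13 ± 1.19) in 2-cell embryos and SEPSECS in morulae (11.9 to 15.8 CPM against at most 0.0284 CPM). GCLM and PSTK in 8-cell pools, NQO1 in morula pools and ME1 and GPX8 in blastocyst pools were listed at 0. Among the redox genes with a mean of 1 CPM or more, 15 of 50 rose and 10 fell towards heavy fractions in GV oocytes (18% and 18.5% of all genes), 3 and 2 of 51 in MII oocytes (7.31% and 12.3%), 6 and 6 of 49 in 2-cell embryos (10.8% and 9.9%), 8 and 3 of 56 in 8-cell embryos (6.41% and 8.62%), 1 and 0 of 49 in morulae (0.887% and 0.646%) and 8 and 0 of 50 in blastocysts (6.21% and 1.75%).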

How the data were processed

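RNA of 120 sucrose gradient fractions and 18 transcriptomes was made into cDNA with a Smart-seq kit and sequenced. The values deposited by the authors are expected counts per gene symbol from Salmon, and 11.7% of them are not whole. Of the 138 libraries, the count was not whole in 128 for CAT, 99 each for PRDX1 and PRDX2, 54 for SOD1 and 34 for GPX4. For the rest of the 10 genes it was not whole in 8 to 18. How far the assignment of reads affects these levels was not tested. The version of Salmon was not given in the sources used here, and the genome build is named differently in the labels and the methods, so no coordinates are given. Counts were rounded. The 3 polysome fractions of a gradient were added up, and the 12 pools and 18 transcriptomes were fitted together in edgeR 4.0.16 (R 4.3.3; 12 groups, TMM factors, filterByExpr, quasi-likelihood test) over 14612 genes, with Benjamini-Hochberg adjustment over all genes. A change between stages was called at an adjusted p under 0.05 and a fold over 2, and other differences at an adjusted p under 0.05. Fraction profiles were scaled over all 138 libraries, so their CPM differ from those of the model. For SOD1 in morulae, the mean of F8 to F10 in gradient A was 188 CPM, and the model's pool A held 254 CPM. The transcriptome mean of SOD1 in morulae was 312 CPM in the profiles and 262 CPM in the model. Contrasts of fractions with transcriptomes are therefore on another scale than those of pools. Trends used log2(CPM + 1), genes with a mean of 1 CPM or more and 100000 permutations (two-sided; Python 3.11.15, numpy 2.4.6, pandas 2.3.3, scipy 1.17.1; figures with matplotlib 3.10.9). The 10 genes and all lists were chosen with earlier results of these data known. All 10 genes are described in every comparison, and of the other redox genes the 2 called with the largest change in each direction are named. Of 60 such genes GPX2 and SEPHS2, and of the markers H1-8 and SOX2, were not analysed here. The alternatives were a likelihood ratio test, DESeq2 1.42.0, other scalings, no filter, a replicate block, other definitions of polysomes and trend, and leaving out each library. None of 78 replicate pairs held identical values. The scripts were tested on simulated data. P-values measure the spread between these samples, which may be technical, although the paper calls the replicates of each fraction biological. The fit used the same estimate of spread for the pools and the transcriptomes of a gene. P-values of pools therefore also draw on the spread between transcriptomes.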

Additional observations from a re-analysis of the deposited data

Results flagged for a closer look

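The change of the polysome pools between consecutive stages differed from that of the transcriptomes in 14 tests of the interaction (adjusted p under 0.05 by edgeR's quasi-likelihood test), and each value below is the log2 change of the pools minus that of the transcriptomes. From GV to MII the difference was 2.53 for GPX4, 2.25 for PRDX2, -1.57 for PRDX3 and -2.61 for TXNRD1. From MII to 2-cell it was 1.94 for PRDX3. From 2-cell to 8-cell it was -2.06 for GPX1, -1.45 for GPX4 and -1.44 for PRDX2, and the last was -0.84 (adjusted p = 0.10) without 8-cell transcriptome A. From 8-cell to morula it was 1.83 for SOD1, 1.42 for GPX1, 1.98 for PRDX1, 1.63 for PRDX3 and 2.55 for TXN. Without morula pool A the SOD1 value was 0.93 and the TXN value 0.77, neither of which passed the threshold. From morula to blastocyst it was 1.85 for GPX1.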

How the results depend on the processing

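Of the calls on the 10 genes, 11 of 15 transcriptome changes, 10 of 21 pool changes, 31 of 43 differences between pools and transcriptome and 6 of 14 differences of change held under every alternative run (38 to 40 each), and 0 of 19 trends held under all 9. With the 12 pools fitted alone, pool changes were 10 (7 higher and 3 lower). With no filter on low counts, 3 differences of change were lower in pools. Trends were 6 (6 rising, 0 falling) without F3 and F10 and 4 (4 rising, 0 falling) in the edgeR test with the gradient as a block, and Pearson r left 1 falling trend. The cause was not tested, except that fewer libraries enter the pools fitted alone and the trend without F3 and F10. Leaving out 1 library at a time gave 13 to 16 transcriptome changes (6 to 8 higher, 7 to 8 lower), 18 to 28 pool changes (12 to 17, 6 to 11), 39 to 49 differences between pools and transcriptome (18 to 21, 18 to 28) and 10 to 19 differences of change (7 to 12, 3 to 8). The 8 lower differences of change were reached without morula pool A, and the count was 3 without 2-cell pool A or B, 8-cell pool A or 8-cell transcriptome A. Without 1 gradient, trends were 2 to 7 (2 to 7 rising, 0 to 0 falling). Without morula pool B, CAT reversed: -0.22 for the pool change from 8-cell to morula, 1.63 from morula to blastocyst (-1.13 with all libraries), and 2.15 for the difference of change there (-0.60); without morula pool A these were 3.40, -1.99 and -1.47.

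Same-lettered libraries did not deviate together (37 pairs, r from -0.2 to 0.0691), and the main model did not pair samples by letter. With 2 pools per stage, the A and B pairs of pools in a step always have the same r. A low r cannot show that samples are unpaired. The paper states that the transcriptomes of a stage came from the batch that was fractionated. With the letter as a replicate block, 14 transcriptome changes, 19 pool changes, 41 differences between pools and transcriptome and 12 differences of change were called. On library totals without TMM factors the median change of all genes from MII to 2-cell transcriptomes moved by 0.46 and the share of genes higher went from 49.5% to 78.8%; from GV to MII it moved by -0.29 and the share went from 41.4% to 17.4%. Precision is limited by 2 gradients per stage, most in morulae.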
